A study of Mus musculus with 6 samples.

Results

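The core circadian clock of muscle was described through 10 genes, chosen by symbol as the core of the loop and all found by Ensembl identifier among the 52369 genes of the deposited table. They are Arntl (also called Bmal1), Clock, Npas2, Per1, Per2, Per3, Cry1, Nr1d1, Nr1d2 and Dbp. Expression was measured by RNA sequencing of tibialis anterior muscle from 6-week-old C57BL/6 mice, in 3 libraries labelled Linc-smad7 overexpression (L7) and 3 labelled control (Control). Linc-smad7 is a long non-coding RNA. The muscles of both groups had been injured at 5 weeks of age with cardiotoxin (50 µl at 10 µM), a venom peptide used to kill fibres so that the muscle regrows. They had then been injected with 6.25 µg of pcDNA3.1 plasmid, an expression vector, in a transfection reagent, the last time on day 4, and were taken on day 7. The labels do not say what the Control plasmid carried, which transcript the L7 plasmid carried, whether each library came from a separate animal, or the hour at which the muscles were taken. Each group held libraries of both sexes, and so at least 2 animals, but whether all 3 were separate animals is not given, and p-values measure only the spread between these libraries.

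The clock is a loop of transcription. BMAL1, the product of Arntl, pairs with CLOCK or with its relative NPAS2, and the pair binds E-boxes and switches on Per1, Per2, Per3, Cry1, Nr1d1, Nr1d2 and Dbp. PER and CRY proteins then hold the pair back, and the REV-ERB proteins made from Nr1d1 and Nr1d2 repress Arntl, Npas2 and Cry1 through elements they share with the ROR receptors. In a running clock the activators and the E-box genes are therefore high at opposite times of the day, with Cry1 peaking later than the other E-box genes, and in skeletal muscle the loop times the use of glucose and fat. The 10 genes were set into an activator arm (Arntl, Clock, Npas2) and an output arm (Per1, Per2, Per3, Nr1d1, Nr1d2, Dbp), with Cry1 in neither.

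On mm10, with genes as annotated by GENCODE M21, the activators lie at chr7:113207465-113314126 (Arntl, plus strand), chr5:76209868-76304792 (Clock, minus strand) and chr1:39193731-39363236 (Npas2, plus strand). The output genes lie at chr11:69095217-69109960 (Per1, plus strand), chr1:91415982-91459324 (Per2, minus strand), chr4:151003652-151044665 (Per3, minus strand), chr11:98767932-98775333 (Nr1d1, minus strand), chr14:18204054-18239127 (Nr1d2, minus strand) and chr7:45705088-45710203 (Dbp, plus strand). Cry1 lies at chr10:85131700-85185064 on the minus strand.

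The binding elements of the loop can be read in the promoters of 5 of the genes, which are shown because they carry a match to an element. The windows run from 250 bases before to 50 bases from the annotated start, 5′ to 3′ on the gene's strand (RefSeq, GRCm38.p6, the assembly that mm10 names), and capitals mark the matches:
Per1, chr11:69098699-69098998, plus strand: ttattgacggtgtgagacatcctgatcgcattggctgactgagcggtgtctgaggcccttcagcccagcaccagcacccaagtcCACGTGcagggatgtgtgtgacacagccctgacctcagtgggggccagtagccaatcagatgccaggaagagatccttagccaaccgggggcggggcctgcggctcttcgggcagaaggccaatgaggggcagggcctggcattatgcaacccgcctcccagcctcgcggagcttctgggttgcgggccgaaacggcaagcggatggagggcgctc
Nr1d1, chr11:98775328-98775627, minus strand: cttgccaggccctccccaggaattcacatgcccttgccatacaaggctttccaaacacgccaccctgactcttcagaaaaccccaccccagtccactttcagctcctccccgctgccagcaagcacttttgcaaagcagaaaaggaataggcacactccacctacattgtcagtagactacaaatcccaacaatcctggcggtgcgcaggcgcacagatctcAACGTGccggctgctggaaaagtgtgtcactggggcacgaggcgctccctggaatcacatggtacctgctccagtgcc
Cry1, chr10:85185005-85185304, minus strand: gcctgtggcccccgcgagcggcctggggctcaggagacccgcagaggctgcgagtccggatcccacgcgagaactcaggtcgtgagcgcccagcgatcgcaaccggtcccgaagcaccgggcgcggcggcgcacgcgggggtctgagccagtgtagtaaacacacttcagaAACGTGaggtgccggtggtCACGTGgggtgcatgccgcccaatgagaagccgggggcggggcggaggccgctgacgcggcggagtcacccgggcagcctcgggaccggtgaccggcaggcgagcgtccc
Per3, chr4:151044616-151044915, minus strand: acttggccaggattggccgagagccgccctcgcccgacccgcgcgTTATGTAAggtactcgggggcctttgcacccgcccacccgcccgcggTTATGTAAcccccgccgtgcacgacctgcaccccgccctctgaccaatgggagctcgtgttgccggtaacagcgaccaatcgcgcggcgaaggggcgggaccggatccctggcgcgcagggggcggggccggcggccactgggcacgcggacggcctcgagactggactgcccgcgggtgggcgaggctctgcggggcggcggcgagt
Arntl, chr7:113207261-113207560, plus strand: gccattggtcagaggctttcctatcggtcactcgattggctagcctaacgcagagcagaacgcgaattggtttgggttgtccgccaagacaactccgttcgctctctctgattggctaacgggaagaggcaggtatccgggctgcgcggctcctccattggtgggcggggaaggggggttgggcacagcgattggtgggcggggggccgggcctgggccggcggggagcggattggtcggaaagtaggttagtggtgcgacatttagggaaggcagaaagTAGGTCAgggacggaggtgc
Positions of matches are counted from the start, with a minus sign before it. Per1 holds an E-box (CACGTG) at -166. In Nr1d1 the match, at -28, is to the weaker E-box variant CACGTT, read on the other strand. Cry1 holds both, the variant at -79 and the E-box at -60. Per3 holds the D-box TTATGTAA, the element bound by DBP, at -205 and at -158. Arntl holds the element TAGGTCA, of the kind bound by REV-ERB and ROR proteins, at 30. RefSeq windows were found for 9 of the 10 genes, 13 windows in all, and both strands were searched. Over all 32851 windows 7.15% held CACGTG, 4.68% CACGTT, 0.938% TTATGTAA and 2.61% TAGGTCA. The cyclic AMP response element TGACGTCA was in 1.79% of all windows and in 0 of the 13. A match describes the letters only. None was found in these windows of Clock, Npas2, Nr1d2 or Dbp. The other window of Per1 (chr11:69099902-69100201) and that of Arntl (chr7:113207215-113207514) held none either.

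Before the members, the libraries: reads in genes came to 22179456, 20725423 and 21187694 in L7 replicates 1, 2 and 3 and to 20897439, 19420012 and 24663153 in Control replicates 1, 2 and 3. L7 replicate 3 stood apart, with a summed level of 14 adult fast fibre genes of 120402 FPKM against 28349 to 45034 FPKM in the other 5 libraries. FPKM, the authors' deposited unit, are fragments scaled to the length of the gene and the depth of the library. Its median of ratios scaling factor was 0.776, against 1.03 to 1.10 in the others. Fibre markers were abundant in every library, as the tissue label says, except Tnnc2, which is among the 14, at 0.977 to 2.33 FPKM. Y-linked reads numbered 3185 in L7 replicate 1 and 4184 and 4168 in Control replicates 1 and 3, and at most 2 in the other 3 libraries, which had Xist at 90.9 and 40.7 FPKM (L7 replicates 2 and 3) and 92.0 FPKM (Control replicate 2). The sexes are therefore mixed within both groups. Across all genes tested the median log2 difference, L7 minus Control, was -0.15, and it was -0.0029 after median of ratios scaling, so differences below are also given relative to that median.

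All 10 clock genes were expressed well above the floor of the test, a mean of 1 FPKM. Averaged over the 6 libraries, the order of the levels was Nr1d1 (25.5 FPKM), Per1 (22.1), Nr1d2 (15.8), Dbp (14.7), Cry1 (14.4), Clock (8.58), Per3 (5.95), Arntl (5.84), Npas2 (4.89) and Per2 (4.63). Ranges over libraries of neighbours in this order overlapped except between Cry1, lowest at 12.5 FPKM, and Clock, highest at 11.1 FPKM. The reads behind a value ranged from 135 for Npas2 to 2319 for Per1. Dbp varied most over the libraries, with a highest value 3.25 times its lowest, followed by Nr1d1 with 2.68 times. Arntl varied least, with 1.24 times.

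**Figure D1:**
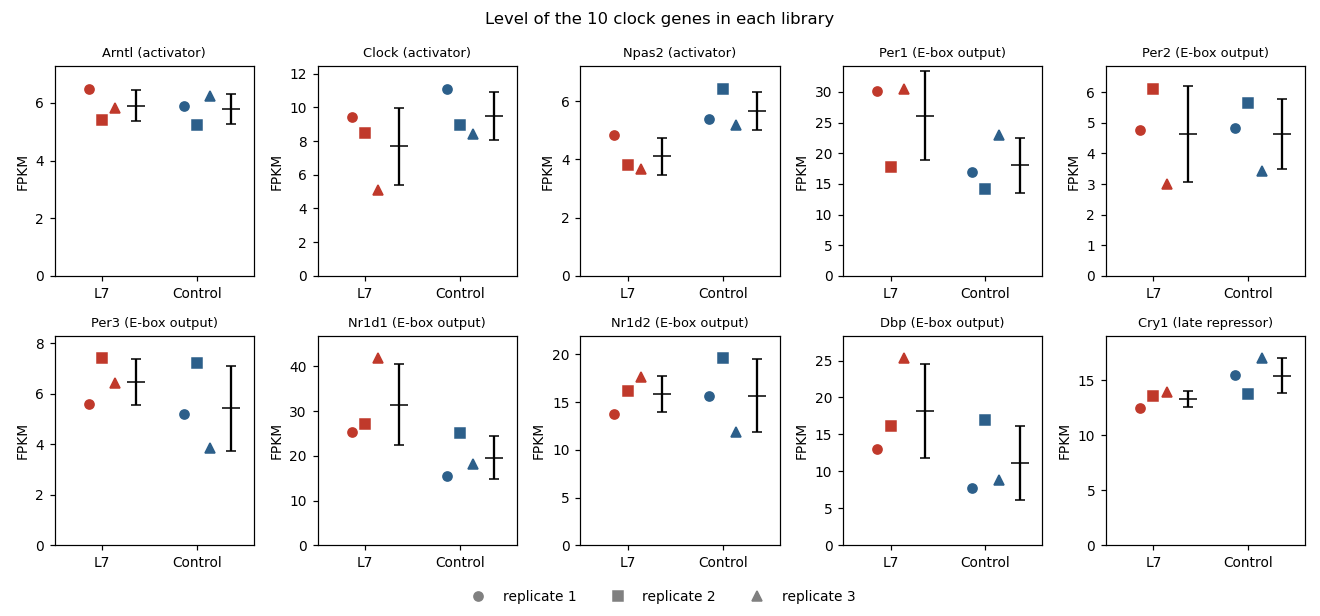
Level in FPKM of each of the 10 clock genes in the L7 and Control libraries, with the mean and SD of each group (n = 3) beside the points. The Nr1d1 points of the groups do not overlap, with L7 from 25.3 to 41.8 FPKM and Control from 15.6 to 25.1 FPKM, and those of Npas2 do not overlap in the other direction.

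None of the 10 genes passed the test between L7 and Control. The genes of the output arm with the largest differences, Dbp, Nr1d1 and Per1, had higher means in the L7 libraries, while Npas2 and Clock of the activator arm had lower ones, and Arntl, Per2 and Nr1d2 had nearly equal means. In limma on log2(FPKM + 1), adjusted over all 14788 genes tested, 0 of the 10 members passed an adjusted p of 0.05, with adjusted p-values from 0.580 to 0.969, and 0.0% of all genes passed. At an unadjusted p under 0.05 there was 1 member, Nr1d1, beside 5.9% of all genes. Limma voom on recovered reads also called 0 members and 0 genes. At an unadjusted p under 0.05 it again held 1 member, Nr1d1, beside 876 of the 14788 genes. In all, 6 members had positive differences and 4 negative ones, with a median of 0.03 against the median of -0.15 over all genes. Every L7 value lay above every Control value in 1 member, Nr1d1, where 5.49% of all genes did so, and below in 1 member, Npas2, where 13.7% of all genes did so. Together that is 2 of 10, against 19.2% of all genes, a share near the background.

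Among the repressors, Nr1d1, which encodes REV-ERB alpha, was at 25.3, 27.1 and 41.8 FPKM in L7 replicates 1, 2 and 3, against 15.6, 25.1 and 18.2 FPKM in Control replicates 1, 2 and 3. The lowest L7 library and the highest Control library, replicate 2, were almost level. Its mean was 31.4 ± 9.02 FPKM in L7 and 19.6 ± 4.90 FPKM in Control libraries (SD, n = 3 each), a ratio of 1.6. The log2 difference was 0.64 ± 0.25 (SE), or 0.80 relative to all genes, with a limma p-value of 0.0338, or 0.580 when adjusted. Exons of Thra, the thyroid hormone receptor alpha gene on the opposite strand, cover 8.55% of the exonic bases of Nr1d1 (GENCODE M21). The library kit does not mark strand, so reads there cannot be told apart. Thra itself was at 77.4, 75.4 and 92.2 FPKM in L7 libraries and at 69.5, 74.4 and 59.4 FPKM in Control libraries. Like Nr1d1 it was highest in L7 replicate 3, and each L7 value lay above each Control value. The part of Thra reads in the Nr1d1 values was not tested.

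Nr1d2, which encodes the related REV-ERB beta, did not share that pattern. It was at 13.8, 16.2 and 17.6 FPKM in L7 replicates 1, 2 and 3, and at 15.6, 19.6 and 11.9 FPKM in Control replicates 1, 2 and 3. The Control libraries held both the highest and the lowest value, and the log2 difference was 0.04 ± 0.20 (SE), with a limma adjusted p of 0.930. Its sign was negative with array weights (-0.10) and without L7 replicate 3 (-0.04).

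The PER genes, whose products close the loop with CRY, differed among themselves. Per1, which also answers directly to glucocorticoids and cyclic AMP, was at 30.1, 17.7 and 30.5 FPKM in L7 replicates 1, 2 and 3, against 16.9, 14.2 and 22.9 FPKM in Control replicates 1, 2 and 3. L7 replicates 1 and 3 lay above every Control library, and L7 replicate 2 lay among them. The log2 difference of Per1 was 0.50 ± 0.26 (SE), or 0.65 relative to all genes, with a limma p-value of 0.0975, or 0.580 when adjusted. Per2 was at 4.77, 6.11 and 2.99 FPKM in L7 libraries and at 4.83, 5.66 and 3.41 FPKM in Control libraries, in replicate order. Group means were 4.62 ± 1.57 FPKM in L7 and 4.63 ± 1.14 FPKM in Control libraries (SD, n = 3 each), and the log2 difference of -0.02 ± 0.26 (SE) was positive, at 0.12, with median of ratios scaling. Per3 stood at 5.6, 7.41 and 6.43 FPKM in L7 libraries, against 5.19, 7.22 and 3.86 FPKM in Control libraries. Only Control replicate 3 lay clear of the other 5 Per3 values, and the log2 difference was 0.25 ± 0.22 (SE), with a limma adjusted p of 0.606.

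Cry1, the cryptochrome partner of PER, had values in a narrow band. It was at 12.5, 13.6 and 13.9 FPKM in L7 replicates 1, 2 and 3, against 15.5, 13.8 and 17.0 FPKM in Control replicates 1, 2 and 3. Only Control replicate 2 fell inside the L7 range. The log2 difference was -0.19 ± 0.14 (SE), which is -0.04 relative to all genes, with a limma adjusted p of 0.582.

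Dbp encodes a transcription factor that carries the rhythm to D-box genes and is itself a direct E-box target of BMAL1. It was at 13.0, 16.2 and 25.3 FPKM in L7 replicates 1, 2 and 3, against 7.79, 16.9 and 8.78 FPKM in Control replicates 1, 2 and 3. Control replicates 1 and 3 lay below every L7 library, but Control replicate 2 exceeded L7 replicates 1 and 2. Means were 18.2 ± 6.38 FPKM in L7 and 11.2 ± 5.03 FPKM in Control libraries (SD, n = 3 each), a ratio of 1.62. The log2 difference was 0.68 ± 0.33 (SE), or 0.83 relative to all genes, with a limma p-value of 0.0790, or 0.580 when adjusted. Exons of Sphk2 on the opposite strand cover 18.0% of the exonic bases of Dbp. Sphk2 ran from 15.2 to 22.2 FPKM in L7 and from 18.7 to 24.5 FPKM in Control libraries, and it was lowest in L7 replicate 3, where Dbp was highest.

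Of the activators, Arntl was the steadiest gene of the clock. It was at 6.49, 5.41 and 5.81 FPKM in L7 replicates 1, 2 and 3, and at 5.89, 5.22 and 6.24 FPKM in Control replicates 1, 2 and 3. The groups overlapped throughout, and the log2 difference was 0.02 ± 0.15 (SE), with a limma adjusted p of 0.934. It was -0.04 without L7 replicate 1 or without Control replicate 2.

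Npas2, which can stand in for CLOCK, was at 4.84, 3.82 and 3.68 FPKM in L7 replicates 1, 2 and 3, against 5.39, 6.43 and 5.20 FPKM in Control replicates 1, 2 and 3. Each L7 library lay below each Control library. Means were 4.11 ± 0.636 FPKM in L7 and 5.67 ± 0.659 FPKM in Control libraries (SD, n = 3 each). The log2 difference was -0.39 ± 0.17 (SE), or -0.23 relative to all genes, with a limma p-value of 0.0526, or 0.580 when adjusted. Clock was at 9.45, 8.48 and 5.11 FPKM in L7 libraries and at 11.1, 8.96 and 8.39 FPKM in Control libraries, and its lowest value was again that of L7 replicate 3. Its log2 difference was -0.30 ± 0.23 (SE) in all 6 libraries, with a limma adjusted p of 0.583, and -0.03 without L7 replicate 3 after median of ratios scaling.

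**Figure D2:**
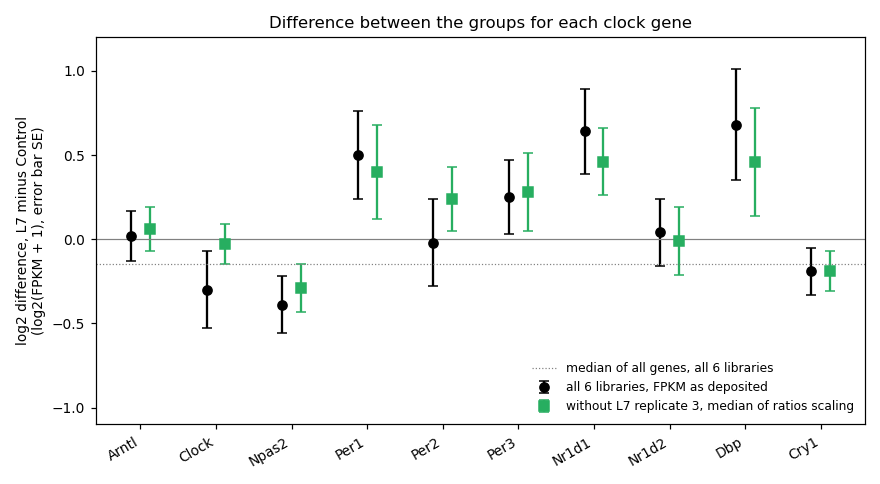
Log2 difference, L7 minus Control, of each clock gene on the log2(FPKM + 1) scale with its SE from limma, in all 6 libraries (black) and without L7 replicate 3 after median of ratios scaling (green). Dbp, Nr1d1 and Per1 lie at 0.68, 0.64 and 0.50 in black and at 0.46, 0.46 and 0.40 in green, and the dotted line marks the median of all genes at -0.15.

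The relation of the arms was then read within each library, as the mean log2(FPKM + 1) of Arntl, Clock and Npas2 minus that of the 6 output genes. Any scaling of a whole library nearly cancels in this index (-0.58 with median of ratios scaling, against the -0.57 below). It is a description, given without a test because it is a score over the members. The output arm exceeded the activator arm in all 6 libraries. The index was -0.83, -1.13 and -1.5 in L7 replicates 1, 2 and 3, against -0.41, -0.87 and -0.47 in Control replicates 1, 2 and 3. The groups overlapped by the narrow margin between L7 replicate 1 and Control replicate 2. Its mean was -1.15 ± 0.34 in L7 and -0.58 ± 0.25 in Control libraries (SD, n = 3 each), a difference of -0.57. The output arm differed by 0.35 and the activator arm by -0.22. The output arm averaged 3.89 ± 0.14 in L7 and 3.54 ± 0.24 in Control libraries, and the activator arm 2.74 ± 0.21 in L7 and 2.96 ± 0.06 in Control libraries (SD, n = 3 each). Without L7 replicate 3 the difference of the index was -0.39.

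**Figure D3:**
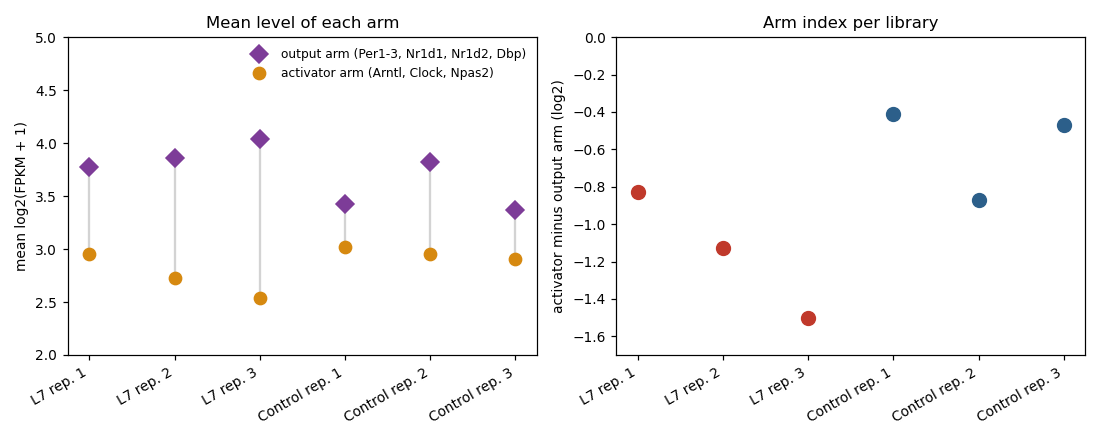
Left, mean log2(FPKM + 1) of the activator arm (circles) and the output arm (diamonds) in each library; right, their difference, the arm index. The widest gap is in L7 replicate 3 (-1.5) and the narrowest in Control replicate 1 (-0.41), and Control replicate 2 (-0.87) lies beside L7 replicate 1 (-0.83).

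Ratios of single genes were computed for 3 pairs, chosen after the values were seen. The log2 ratio of Npas2 to Nr1d1, an activator gene over the gene of its repressor, was -2.39, -2.83 and -3.50 in L7 libraries, against -1.53, -1.96 and -1.81 in Control libraries, in replicate order. These values could not overlap, because the groups of Npas2 and of Nr1d1 were each already apart, in opposite directions. For Arntl over Nr1d1 the ratio was -1.96, -2.33 and -2.85 in L7 libraries and -1.40, -2.26 and -1.55 in Control libraries. For Arntl over Dbp it was -1.0, -1.58 and -2.12 in L7 libraries and -0.40, -1.7 and -0.49 in Control libraries. In these last pairs Control replicate 2 fell among the L7 libraries.

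In Dbp, Per2, Per3, Nr1d2, Arntl and Cry1 Control replicate 2 differed from the other Control libraries by more than L7 differed from Control. In Nr1d1 and Per1 it did so by slightly less. Those other Control libraries were themselves apart in Per2 (4.83 and 3.41 FPKM in replicates 1 and 3) and Nr1d2 (15.6 and 11.9 FPKM). On the log2(FPKM + 1) scale it exceeded the mean of Control replicates 1 and 3 by 0.95 in Dbp, 0.58 in Per3, 0.55 in Nr1d1, 0.49 in Nr1d2 and 0.39 in Per2, while it lay at -0.45 in Per1, -0.23 in Cry1 and -0.18 in Arntl. Of the 6 libraries it ranked first for Npas2 and Nr1d2, second for Dbp, Per2 and Per3, and last for Arntl and Per1. Control replicate 3, in contrast, ranked first for Cry1, second for Arntl, and last for Per3 and Nr1d2. In the map of clock genes by library, Per2, Per3 and Nr1d2 were above their means in Control replicate 2 and below them in Control replicate 3, and Per1 went the other way.

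**Figure D4:**
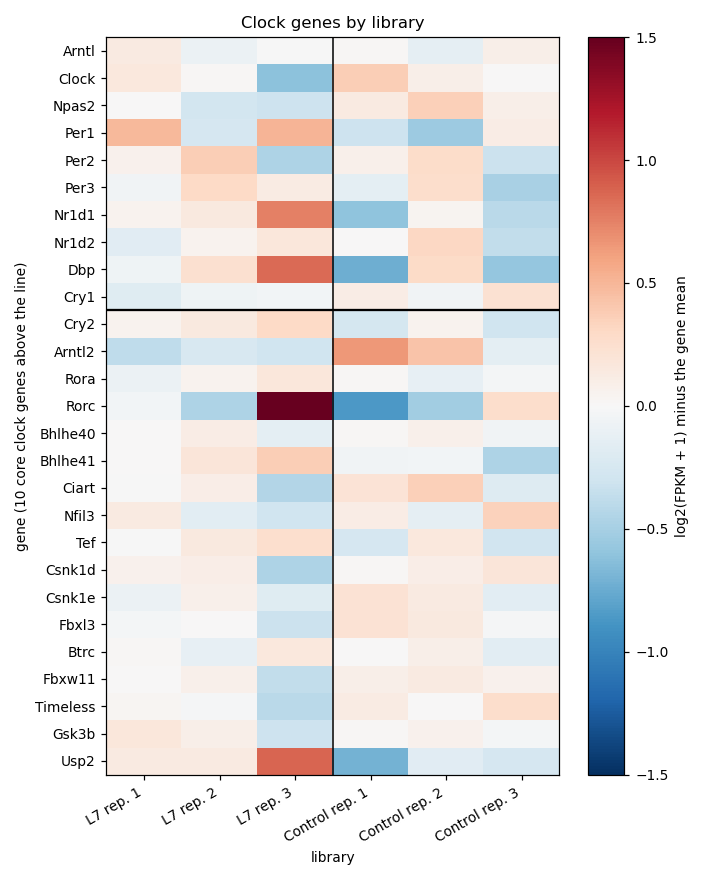
Log2(FPKM + 1) minus the gene's own mean in each library, for the 10 core clock genes (above the line) and the 17 tested members of the list of other clock components (below it). Dbp and Nr1d1 are lowest in Control replicate 1 (7.79 and 15.6 FPKM) and highest in L7 replicate 3 (25.3 and 41.8 FPKM).

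Sex moved with some of these genes. Control replicate 2 is the only Control library without Y-linked reads, and L7 replicate 1 is the only L7 library with them. Libraries with Y-linked reads minus libraries with Xist gave log2 differences of -0.92 for Dbp, -0.63 for Nr1d1, -0.46 for Per3, -0.35 for Nr1d2 and -0.12 for Per2. The differences were 0.35 for Clock, 0.19 for Per1, 0.16 for Npas2, 0.15 for Arntl and 0.10 for Cry1. These values are not adjusted for group, and the sets differ in their share of L7 libraries. Within the libraries with Y-linked reads (1 L7, 2 Control) L7 minus Control was 0.60 for Dbp, 0.56 for Nr1d1, 0.59 for Per1 and -0.11 for Npas2. Within those with Xist (2 L7, 1 Control) it was 0.24, 0.41, 0.68 and -0.64 for the same genes. The arm index was -0.83 (L7 replicate 1), -0.41 and -0.47 (Control replicates 1 and 3) in the libraries with Y-linked reads, and -1.13, -1.5 (L7 replicates 2 and 3) and -0.87 (Control replicate 2) in those with Xist. These sets did not overlap, whereas L7 and Control did, but both rest on the narrow margin between L7 replicate 1 and Control replicate 2. The difference between the sets was 0.60, and that between L7 and Control was -0.57. The splits differ only in where L7 replicate 1 and Control replicate 2 fall. Those libraries were nearly level, so the sizes had to be alike and do not weigh sex against group. Within the libraries with Y-linked reads L7 minus Control was -0.39 for the index, and within those with Xist -0.44, with too few libraries in each for a test. The part of sex in the L7 and Control values was not tested beyond the covariate below. With sex as a covariate in limma no member passed. The log2 difference was then 0.42 for Dbp, 0.49 for Nr1d1, 0.63 for Per1 and -0.38 for Npas2. In that fit 1 member, Per1, had an unadjusted limma p under 0.05, beside 379 of the 14788 genes tested.

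Fast fibre genes moved with Dbp and Nr1d1 of the output arm as well. All 14 listed genes of the adult fast fibre were higher on average in L7, at a median log2 difference of 0.95, with 6 of 14 above without overlap of the groups, where 5.49% of all genes were, and 0 past the limma test. Their summed level was 41554, 45034 and 120402 FPKM in L7 replicates 1, 2 and 3, against 28349, 39239 and 36147 FPKM in Control replicates 1, 2 and 3. That is the order of the libraries for Nr1d1, and for Dbp too except that Control replicate 2 stood second. Per1, Per2, Per3 and Nr1d2 did not follow this order, and in L7 replicate 3 Per1 was highest but Per2 lowest. The part of fibre content in the clock gene values was not tested, and in bulk muscle fewer cells of a type and less RNA per cell cannot be told apart. Without L7 replicate 3 and after median of ratios scaling, Dbp and Nr1d1 each had a log2 difference of 0.46, Per1 0.40 and Npas2 -0.29, all with limma adjusted p-values above 0.05. Leaving out a library can only add genes without overlap. Without L7 replicate 3 there was 1 member above (Nr1d1), where 9.9% of all genes were, and 2 below (Npas2 and Cry1), where 15.0% were, together 3 of 10 against 24.9% of all genes.

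**Figure D5:**
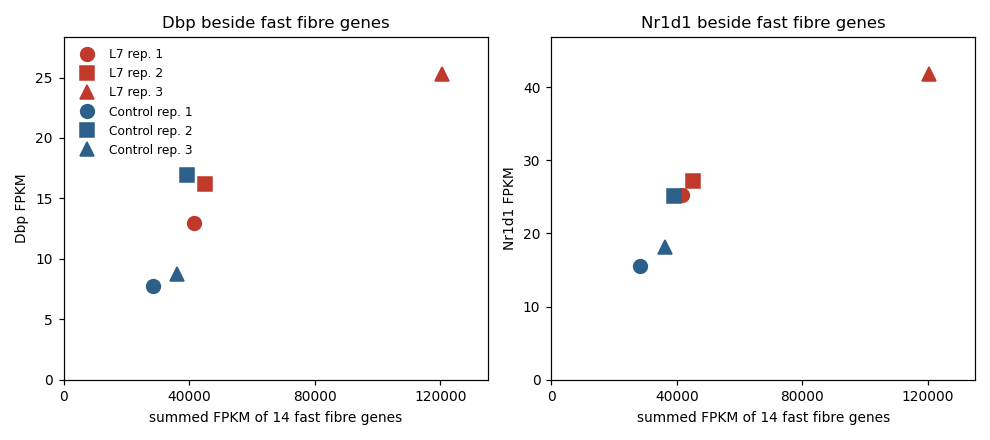
FPKM of Dbp (left) and Nr1d1 (right) in each library against the summed FPKM of 14 adult fast fibre genes. L7 replicate 3 lies alone at 120402 FPKM of fibre genes, and the other 5 libraries lie between 28349 and 45034 FPKM.

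The other genes of the pathway were taken from a list of 20 further clock components and regulators. Of these 17 entered the test, Rorb, Hlf and Fbxl21 being under the floor, and 0 passed limma in either direction. Log2 differences were positive in 7 and negative in 10, with a median of -0.03. Usp2, a deubiquitinase with a strong daily rhythm, was at 47.9, 47.9 and 80.7 FPKM in L7 libraries, against 26.3, 38.5 and 36.3 FPKM in Control libraries. Its log2 difference was 0.76 ± 0.25 (SE), with a limma p-value of 0.0179, or 0.580 when adjusted, and the groups did not overlap. Arntl2, the paralogue of Arntl, was at 3.10, 3.52 and 3.36 FPKM in L7 libraries, against 7.40, 6.18 and 3.84 FPKM in Control libraries. Each L7 value lay below each Control value, and the log2 difference was -0.62 ± 0.23 (SE), with a limma p-value of 0.0274, or 0.580 when adjusted. Cry2, the second cryptochrome, was at 14.5, 15.5 and 17.4 FPKM in L7 and at 11.4, 14.5 and 11.1 FPKM in Control libraries. Bhlhe41, a repressor that competes at E-boxes, was at 11, 12.6 and 14.5 FPKM in L7 and at 10.5, 10.6 and 7.72 FPKM in Control libraries. Both had a limma adjusted p of 0.580, and the groups of Bhlhe41 did not overlap. These 4 genes are those of smallest limma p in the list. Of the 17 tested, L7 lay wholly above in 2 and below in 1, against 5.49% and 13.7% of all genes.

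Genes downstream of the clock, or able to reset it, gave no call either. Of 14 listed clock output genes 8 had positive and 6 negative log2 differences, with a median of 0.17. Lpl, lipoprotein lipase, was at 43.6, 44.5 and 57.5 FPKM in L7 libraries, against 36, 34.3 and 29.3 FPKM in Control libraries. Nampt, the rate-limiting enzyme of the NAD salvage pathway and an E-box target of the clock, was at 75.6, 72.3 and 58.2 FPKM in L7 libraries, against 115, 81.6 and 129.6 FPKM in Control libraries. Neither pair of groups overlapped, with limma p-values of 0.0139 for Lpl and 0.0174 for Nampt and an adjusted p of 0.580 for both. Of 14 tested glucocorticoid-responsive genes 7 had positive and 7 negative differences, with a median of 0.04. Glul, glutamine synthetase, was at 236, 227 and 205 FPKM in L7 and at 142, 181 and 175 FPKM in Control libraries, and Sgk1, a kinase, was at 85.8, 76.6 and 110.4 FPKM in L7 and at 59.8, 67.0 and 72 FPKM in Control libraries. Of 12 immediate early genes, which like Per1 can respond to cyclic AMP, 4 had positive and 8 negative differences, with a median of -0.09. Nr4a1, an orphan nuclear receptor, was at 31.8, 30.7 and 64.2 FPKM in L7 and at 17.8, 23.2 and 24.0 FPKM in Control libraries, and Ier3 was at 23.2, 26.6 and 10.7 FPKM in L7 and at 39.9, 28.7 and 38.0 FPKM in Control libraries. None of these 4 genes passed limma, each with an adjusted p of 0.580, though their groups did not overlap. The genes named are the 2 of smallest limma p in each list, which favours groups without overlap. L7 lay wholly above in 2 and below in 2 of 14 clock output genes, and in 2 and 0 of 14 glucocorticoid-responsive genes. For the 12 immediate early genes these counts were 2 and 3. Over all genes tested the shares were 5.49% above and 13.7% below.

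Likeness to the pattern of Dbp was measured as the root mean square distance between centred log2(FPKM + 1) profiles over the 6 libraries, among 13027 named genes. The nearest were Trp53inp2 (0.146), Rec8 (0.181), Actn2 (0.183), Mybpc1 (0.188) and Col22a1 (0.191). Actn2 and Mybpc1 encode sarcomere proteins, and Actn2 was at 609, 629 and 1111 FPKM in L7 libraries and at 328, 546 and 424 FPKM in Control libraries. For Arntl the nearest genes were Parl (0.031), Mtmr14 (0.037), Dpy30 (0.039), Tmem69 (0.039) and Tmem106c (0.042). Small distances are common around a gene that varies as little as Arntl.

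In the authors' deposited table of the comparison, which rests on reads divided by size factors, no member was among the 359 genes marked, and each had an adjusted p of 1. That table gave log2 fold changes, L7 over Control, of 0.94 for Dbp, 0.91 for Nr1d1, 0.74 for Per1, 0.45 for Per3 and -0.29 for Npas2. In the authors' deposited table of Gene Ontology terms, circadian rhythm held 5 of the 268 marked genes annotated there and 194 of 21889 background genes, with a corrected p of 0.943. These genes were Adipoq, marked higher, and Drd4, Nos2, Rps27a and Il6, marked lower, none of them a core clock gene.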

How the data were processed

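Per the submitters' processing notes reads were handled on mm10 with HISAT2 2.0.4, Bowtie2 2.2.3, DESeq 1.12.0 and TopHat2 2.0.12, with no role given. Counter, strand setting and annotation: not given in the sources used here. Deposited by the authors were FPKM per gene and library. Their deposited comparison table has, for each group, the average normalised signal, beside a log2 fold change and p-values. Another deposited table holds p-values of Gene Ontology terms.

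Symbols were matched by Ensembl identifier (51633 of 52369 genes), and coordinates and overlaps came from GENCODE M21 on the same build. Steps between FPKM values and the authors' size-factor-scaled means gave back reads, and 152096 of 152096 values above 0 (100%) lay within 0.05 of a whole number; voom on them called 0 genes. Genes were tested two-sided on log2(FPKM + 1) in limma 3.58.1 under R 4.3.3, the prior variance following the mean (trend), group as the only factor, over the 14788 genes with a mean of at least 1 FPKM, with Benjamini-Hochberg adjustment at 0.05. The log2(FPKM + 1) scale understates changes of low genes. The fit was tested on simulated data with known changes. Those data held no outlying library and no difference between the sexes, and no statement here rests on them. The members and lists were chosen with earlier results of these data known. Named genes were all members, the 4 or 2 members of smallest p in each list, and the 5 genes nearest Dbp and Arntl. Alternatives were another pseudocount, no filter, median of ratios scaling, array weights, sex, a replicate term, voom, and each library left out. Figures used Python 3.11.15 and matplotlib 3.10.9.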

Additional observations from a re-analysis of the deposited data

How the results depend on the processing

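Across 140 refits of single members, 126 kept the direction of the difference, 14 had the opposite one, and none passed the threshold, with adjusted p-values from 0.387 to 0.999. The direction held for 7 members in every alternative run, with ranges of 0.42 to 1.00 for Dbp, 0.43 to 0.85 for Nr1d1, 0.35 to 0.75 for Per1, 0.06 to 0.47 for Per3, -0.49 to -0.24 for Npas2, -0.45 to -0.03 for Clock and -0.27 to -0.03 for Cry1. Per2 was positive with median of ratios scaling (0.12), array weights (0.13) and voom (0.17), and without L7 replicate 3 after median of ratios scaling (0.24). Nr1d2 was negative with array weights (-0.10) and sex as a covariate (-0.09), and without L7 replicate 3 after that scaling (-0.01). With 1 library left out Per2 ranged from -0.21 to 0.21, Nr1d2 from -0.14 to 0.20 and Arntl from -0.04 to 0.08. At an unadjusted p under 0.05 there were 0 to 3 members with 1 library left out. Of the 14788 genes tested, 265 (without Control replicate 1) to 1635 (without L7 replicate 1, the fit with 3 members) were under it in those fits. Nr1d1 was not among the members without L7 replicate 3, Control replicate 1 or Control replicate 3, nor with sex as a covariate. The causes were not tested. Over all genes, array weights called 3 genes, leaving out 1 library called 0 to 1 (1 without L7 replicate 1), leaving out L7 replicate 3 after median of ratios scaling called 1, and the other alternatives 0. The arm index difference ranged from -0.73 to -0.39 with 1 library left out. Voom and the fit without L7 replicate 3 after scaling were added after seeing the data. The planned count test on recovered reads was not run, because the deposited unit is FPKM, and voom took its place. Deviations of same-numbered libraries from their group means had correlations of 0.322, -0.065 and 0.087 for numbers 1, 2 and 3. The labels do not say whether the numbers pair the libraries, and 3 correlations cannot settle it. With a replicate block 0 genes and 0 members were called, 1178 genes had an unadjusted p under 0.05 against 873 without the block, and member adjusted p-values ran from 0.504 to 0.941. Read depth limits Npas2 most, with 135 to 222 reads per library.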

Other observations

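Marker lists of other cells that carry their own clocks gave no limma call. Adipocyte markers summed to 55.9, 44.4 and 78.3 FPKM in L7 replicates 1, 2 and 3 and to 43.4, 43.6 and 38.3 FPKM in Control replicates 1, 2 and 3, with 3 of 3 tested members positive. That sum was mostly Fabp4, at 48.1, 38.5 and 66.9 FPKM in L7 and 42.6, 40.5 and 34.4 FPKM in Control libraries. Plin1, Lep, Cidec and Retn were under the floor of the test. Neutrophil markers summed to 305, 155 and 51.4 FPKM in L7 and to 273, 167 and 268 FPKM in Control libraries, with 5 of 6 negative, and macrophage markers to 4328, 3568 and 2134 FPKM in L7 and 3257, 2944 and 4166 FPKM in Control libraries, with 8 of 10 negative. Regenerating fibre markers summed to 4187 to 5029 FPKM in L7 and 2481 to 3588 FPKM in Control libraries, although 6 of 8 members were negative, the sum being mostly Actc1, at 3398, 2817 and 3473 FPKM in L7 and 1978, 2265 and 1464 FPKM in Control libraries. Fibroblast markers were negative in 6 of 7, endothelial markers in 4 of 6 and lymphocyte markers in 4 of 6. Of the mitochondrial transcripts 9 of 9 were positive. The median log2 difference over all genes was itself -0.15. List medians were -0.10 for fibroblast, -0.03 for endothelial, -0.11 for macrophage, -0.23 for lymphocyte, -0.18 for regenerating fibre and -0.69 for neutrophil markers. They were 0.83 for adipocyte markers and 0.48 for mitochondrial transcripts. The mitochondrial sum was highest in L7 replicate 3, at 32707 FPKM against 14485 to 20511 FPKM in the other libraries. None of these lists was tested as a set.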
